A study of Mus musculus with 8 samples.

Results

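The nuclear genes that encode the subunits of the mitochondrial respiratory chain and ATP synthase were compared between liver tumors and control liver. Members were the genes on the array whose symbols start with Ndufa, Ndufb, Ndufc, Ndufs or Ndufv, are Sdha to Sdhd, or start with Uqcr, Cox4 to Cox8 or Atp5. The rule leaves out the Ndufaf assembly factors and uses no measured value. It found 85 of 20145 named genes: 38 of complex I, 4 of complex II, 8 of complex III, 18 of complex IV and 17 of complex V. Of these, 83 were bright enough to be tested. Cox7b2 (above background in 1 tumor) and Cox8c, isoforms known from testis, were not.

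The tumors were 8 hepatocellular carcinomas of male mice with a miR-122 KO genotype. The controls were livers of age-matched male mice with the miR-122 floxed genotype, in which the gene is still intact. Both groups had the same mixed background, C57BL/6J and 129S/Svj. Each of 8 Agilent arrays held 1 tumor labelled with Cy5 and control liver labelled with Cy3, with no dye swap, so a dye effect and a tumor effect cannot be told apart. The labels do not say which Cre line made the knockout, whether tumors shared a mouse, or whether the control RNA was 1 pool, so the p-values measure the spread between these 8 arrays. The control channels were not alike on all arrays, since fasting genes and muscle genes differed between them (values below).

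Complex I takes electrons from NADH and complex II from succinate, and both pass them to ubiquinone. Complex III hands them on to cytochrome c and complex IV to oxygen, while complexes I, III and IV pump protons out of the matrix. Complex V uses the returning protons to make ATP. Hepatocytes are rich in mitochondria and rely on this chain for gluconeogenesis, urea synthesis and fatty acid oxidation. A few subunits come in isoforms tied to heart and muscle, lung, testis or low oxygen. The transcription factors NRF1, GABPA and ERR-alpha, with the coactivator PGC-1-alpha (Ppargc1a), are known regulators of these genes.

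Values are log2 ratios of tumor over control liver on each array, and errors are SDs over 8 arrays unless another n is given. A gene was called at a limma adjusted p (Benjamini-Hochberg over 14324 genes) under 0.05. Between 38.5% and 51.9% of probes were well above background in the tumor channel, and between 45.2% and 54.3% in the control channel. Tumor 8 was dimmest, with an upper quartile signal of 213 against 378 to 606 in the other tumors. Its array also stood apart in skeletal muscle genes, which were raised in both channels (values below).

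Most subunits were lower in tumors. In all, 51 of 83 fell and 4 rose, against 25.1% of all tested genes lower and 28.7% higher. The median subunit stood at -0.44, which is 73.7% of control liver, against a median of 0.03 over all genes. Mean ratios were below 0 for 72 of 83 subunits (86.7%), against 47.9% of all genes. The ratio was below 0 on all 8 arrays for 30 subunits, which is 36.1% of them, against 16.6% of all genes. The tumor and control channels did not overlap for 21 subunits (25.3%), against 16.7% of all genes. The falls were small. Called subunits were 1.21-fold to 3.37-fold lower, with a median of 1.52-fold, and 2 fell at least 2-fold (Uqcrfs1 and Cox6b2), against 5.93% of all genes. The 4 rises were 1.28-fold to 1.60-fold, short of the 2-fold that 9.53% of all genes passed in that direction. Cell type markers moved between the groups as well. Of 10 hepatocyte markers, 6 fell and the others were not called, and the labelled tissue's marker Alb averaged -0.29. Of 6 bile duct markers 5 rose, and of 7 stellate cell and fibroblast markers 5 rose and 1 fell. Of 6 macrophage markers 3 fell and 1 rose, of 6 endothelial markers 3 fell, and of 5 lymphocyte markers 1 rose. Their part in the subunit values was not tested. In bulk tissue, fewer cells of a type and less RNA per cell cannot be told apart.

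**Figure D1:**
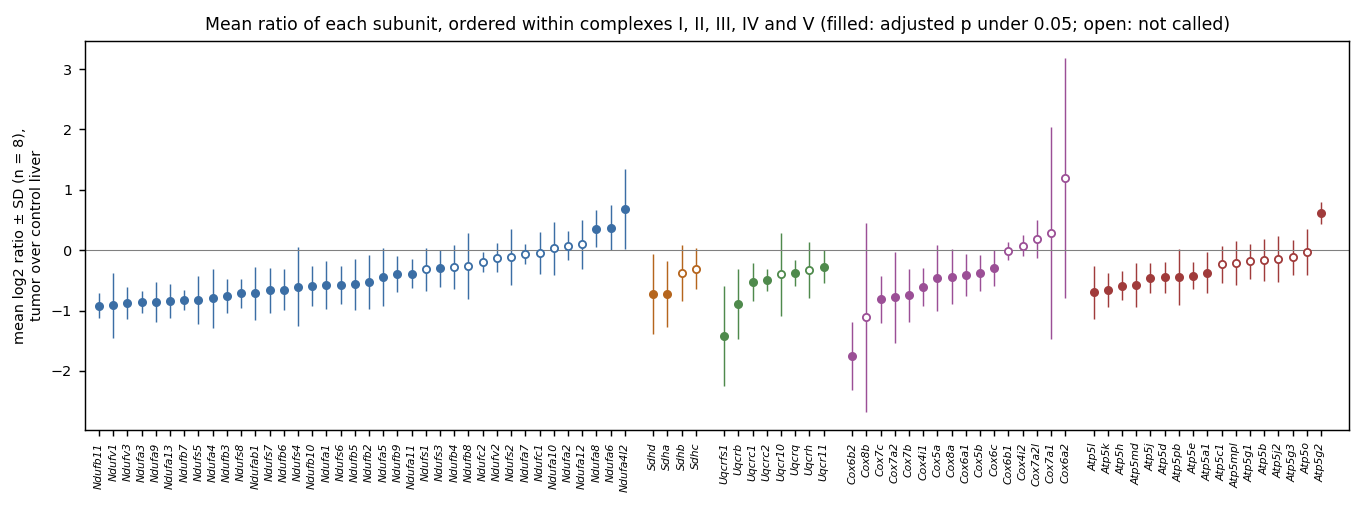
Mean log2 ratio of tumor over control liver (vertical axis) for each of 83 tested subunits, ordered by mean within complexes I to V. Points are means and bars are SDs over 8 arrays, with filled points for an adjusted p under 0.05. Most points lie between 0 and -1; Uqcrfs1, Cox6b2 and Cox8b lie below -1, and the bars of Cox6a2, Cox7a1 and Cox8b are the longest.

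In complex I, the median ratio was -0.54, and 24 of 38 genes were called lower and 3 higher. These counts hold 7 core and 29 accessory subunits and the pair Ndufa4 and Ndufa4l2, which the rule places here by their names. Its 7 core subunits, which carry the redox centres, had a median of -0.32, and 4 of them fell. The 29 accessory subunits had a median of -0.56, with 19 lower and 2 higher. Ndufb11, an accessory subunit of the membrane arm, changed most. Its normalized log2 signal ranged from 14.42 to 15.23 in tumors (median 14.76), against 15.57 to 15.92 in control livers (median 15.67). Every tumor lay below every control liver, and the mean ratio was -0.92 ± 0.21 (adjusted p = 3.45e-05). Its other probe was dimmer (mean log2 brightness 8.18 against 15.22) and read -0.53.

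Ndufv1, the core subunit that binds NADH and FMN, ranged from 14.12 to 15.51 in tumors (median 14.84), against 15.56 to 15.82 in control livers (median 15.67). The control livers lay close together while the tumors spread widely: tumor 4 was near the controls at a ratio of -0.16 and tumor 6 was lowest at -1.63. The mean was -0.91 ± 0.54 (adjusted p = 0.00183). Ndufv3, an accessory subunit beside Ndufv1, averaged -0.87 ± 0.27, but its other probe read 0.15, so its 2 probes disagree in direction. That other probe was dimmer, at a mean log2 brightness of 9.61 against 15.18. Ndufa3, an accessory subunit of the membrane arm, averaged -0.86 ± 0.19 and fell in every tumor, between -1.08 and -0.52.

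The 3 genes counted in complex I that rose were Ndufa4l2, Ndufa6 and Ndufa8. Ndufa8 faces the intermembrane space. It ranged from 12.43 to 13.41 in tumors (median 12.94), against 12.44 to 12.96 in control livers (median 12.49). The channels overlapped, and the mean ratio was 0.36 ± 0.31 (adjusted p = 0.0216). Ndufa6, an LYR-motif subunit, ranged from 14.25 to 15.02 in tumors (median 14.51), against 13.99 to 14.61 in control livers (median 14.14). The mean ratio was 0.37 ± 0.38 (adjusted p = 0.0333), with tumors 5 and 8 below 0. Both calls were lost with the processed signals of the scanner software (0.23 for Ndufa8 and 0.25 for Ndufa6). With 7 arrays the calls were also lost at ratios close to these. Ndufa8 averaged 0.32 without tumor 7 (adjusted p = 0.051). Ndufa6 averaged 0.28 to 0.39 without tumor 1, 2, 3, 4, 6 or 7 (adjusted p between 0.0542 and 0.0781).

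Complex II, which is also an enzyme of the citric acid cycle, had a median of -0.55. Sdha, the flavoprotein that oxidizes succinate, ranged from 12.90 to 14.15 in tumors (median 13.13), against 13.85 to 14.31 in control livers (median 14.11). Its mean ratio was -0.72 ± 0.55 (adjusted p = 0.00658). Sdhd, a membrane anchor, averaged -0.73 ± 0.66 (adjusted p = 0.0149). Both genes showed a split between tumors. Sdha stood at -1.26 to -1.02 in tumors 1, 3, 4, 5 and 6, at -0.47 in tumor 8, and at 0.12 and 0.04 in tumors 2 and 7. Sdhb, the iron-sulfur subunit (-0.38 ± 0.46), and Sdhc, the other anchor (-0.31 ± 0.34), did not pass the test over 8 arrays. The other probe of Sdhb was dimmer (mean log2 brightness 13.3 against 15.2) and read -0.73, and that of Sdhc read -0.30. All 4 genes were called lower without tumor 2, without tumor 7 and without both. Tumors 2 and 7 had the highest ratios of all 4 genes, so leaving them out had to lower the means. Leaving out both was chosen after seeing the data, so these calls are no further evidence of a fall in Sdhb and Sdhc.

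In complex III, 6 of 8 subunits fell, with a median of -0.45. Uqcrfs1, the Rieske iron-sulfur protein that takes electrons from ubiquinol, was the lowest. It ranged from 11.86 to 13.94 in tumors (median 12.77), against 14.12 to 14.65 in control livers (median 14.36). No tumor reached the control range. The mean ratio was -1.42 ± 0.82, or 37.3% of control (adjusted p = 0.0013). Tumors 7, 8 and 2 lost least (-0.18, -0.58 and -0.72) and tumor 3 most (-2.51). Uqcrb, a small subunit near the ubiquinone site, had the same 3 tumors nearest 0 and averaged -0.89 ± 0.58 (adjusted p = 0.00284). The core proteins Uqcrc1 and Uqcrc2, which hold the complex together, also fell. Uqcrc1 averaged -0.53 ± 0.32 (adjusted p = 0.00373). Uqcrc2 averaged -0.49 ± 0.18 (adjusted p = 0.000845) and varied little between tumors, from -0.82 to -0.23.

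In complex IV, 10 of 16 tested subunits fell, with a median of -0.42. All 10 are nuclear subunits that surround the catalytic core. Mitochondrial DNA encodes that core. Its 13 protein-coding genes were looked for by symbol, and none was among the named genes. Cox7c, a small membrane subunit, ranged from 13.13 to 14.22 in tumors (median 13.43), against 14.15 to 14.62 in control livers (median 14.40). Tumor 2 alone reached the control range, and the ratio nearest 0 was -0.19 in tumor 7; the mean was -0.81 ± 0.39 (adjusted p = 0.000792). Its 3 probes read between -0.81 and -0.19. The probe at -0.19 was dim, at a mean log2 brightness of 6.50. The other probes, at 13.99 and 13.37, read -0.81 and -0.77. Cox7b, another small subunit, averaged -0.75 ± 0.43 (adjusted p = 0.00192). Cox7a2, the isoform of subunit 7a found in liver, averaged -0.78 ± 0.75 (adjusted p = 0.018). Tumor 7 was above its control at 0.58, tumor 8 was level at -0.01 and tumor 2 had -0.44, while the other 5 tumors ranged from -1.56 to -1.10.

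In complex V, 9 of 17 subunits fell and 1 rose, with a median of -0.37. The F1 head, where ATP is made, had 3 of 5 subunits lower, with a median of -0.37. Of the 9 other subunits of the stalks and membrane part, 6 fell, with a median of -0.46. Atp5l and Atp5k (subunits g and e) sit where ATP synthase dimers meet, and averaged -0.70 ± 0.44 and -0.66 ± 0.28 (adjusted p = 0.00306 and 0.000692). The 5 probes of Atp5l read between -0.81 and -0.34. Atp5h (subunit d of the peripheral stalk) averaged -0.59 ± 0.24 (adjusted p = 0.000786), and Atp5md, a small subunit known as DAPIT, averaged -0.58 ± 0.36 (adjusted p = 0.00356).

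The c-ring is the rotor that protons turn, and 1 of its 3 genes rose. Atp5g1, Atp5g2 and Atp5g3 encode the same mature subunit c. Atp5g2 ranged from 15.47 to 16.17 in tumors (median 15.83), against 15.03 to 15.51 in control livers (median 15.25). Its ratio was above 0 in all 8 tumors, between 0.42 and 0.94, with a mean of 0.61 ± 0.19 (adjusted p = 0.000272). Its other probe, nearly as bright (mean log2 brightness 15.49 against 15.55), read a smaller rise of 0.40 ± 0.16. Atp5g1 (-0.18 ± 0.29) and Atp5g3 (-0.12 ± 0.30) did not pass the test. Atp5g2 exceeded Atp5g3 by 0.73 ± 0.37 on the same arrays, in 8 of 8 tumors (exact two-sided sign-flip test adjusted over 9 isoform pairs, p = 0.0176). A p of 0.00781 before adjustment is the smallest that 8 arrays can give. Atp5g1 and Atp5g3 differed by -0.06 ± 0.25 (adjusted exact p = 0.531).

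**Figure D2:**
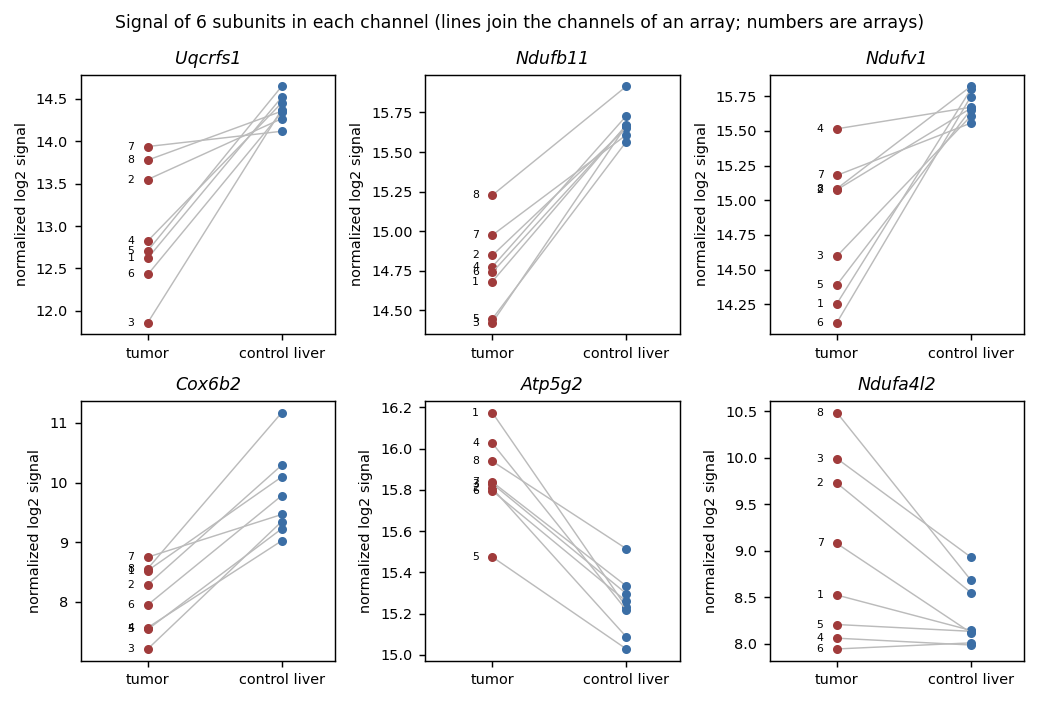
Normalized log2 signal (vertical axes) of 6 subunits in the tumor channel (left) and the control channel (right) of each array. Lines join the 2 channels of an array and the numbers are arrays. Uqcrfs1, Ndufb11, Ndufv1 and Cox6b2 are lower in every tumor than on the control side of its array, and Atp5g2 is higher in every tumor, while Ndufa4l2 is close to its control in tumors 4, 5 and 6.

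Isoforms did not follow their partners in several pairs. Ndufa4 was named as a complex I subunit and is now placed in complex IV, and Ndufa4l2 is its paralog, known to be induced by hypoxia. Ndufa4 fell (-0.80 ± 0.49, adjusted p = 0.00238). Ndufa4l2 ranged from 7.94 to 10.48 in tumors (median 8.80), against 7.99 to 8.93 in control livers (median 8.14). It rose by 0.68 ± 0.67 (adjusted p = 0.0203). The rise was uneven: ratios were 1.80, 1.18, 1.06 and 0.96 in tumors 8, 2, 3 and 7, 0.38 in tumor 1, and between -0.07 and 0.07 in tumors 4, 5 and 6. The call was lost without tumor 2 or without tumor 3, at ratios of 0.61 and 0.63 (adjusted p = 0.0508 and 0.0506). The paralog exceeded Ndufa4 by 1.48 ± 0.88 in 8 of 8 tumors (adjusted exact p = 0.0176).

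Cox4i1, the common form of subunit 4, fell (-0.61 ± 0.31, adjusted p = 0.00151). Cox4i2, the lung form, was dim and averaged 0.08 ± 0.18. The pair differed by 0.69 ± 0.34 in 8 of 8 tumors (adjusted exact p = 0.0176). Subunit 6b went the other way. Cox6b2, a form known from testis, ranged from 7.21 to 8.75 in tumors (median 8.12), against 9.02 to 11.17 in control livers (median 9.62). It was the lowest member at -1.75 ± 0.56, or 29.7% of control (adjusted p = 4.85e-05), with no overlap between the channels. Cox6b1, the common form, averaged -0.01 ± 0.15. The difference of -1.74 ± 0.56 was below 0 on all 8 arrays (adjusted exact p = 0.0176).

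Cox7a2l is related to Cox7a2 and known for joining complexes III and IV in supercomplexes. It averaged 0.18 ± 0.31 and exceeded Cox7a2 by 0.96 ± 0.67 in 7 of 8 tumors (adjusted exact p = 0.0281). Without tumor 1, 2, 3 or 6 that adjusted exact p was 0.0563. Its 3 probes read between 0.18 and 0.52.

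Cox6a2, Cox7a1 and Cox8b, the forms known from heart and skeletal muscle, varied most of all members, with SDs of 1.98, 1.75 and 1.57. None of them passed the test over 8 arrays. Cox7a1 had ratios of 2.95 in tumor 2 and 2.87 in tumor 7, 0.67 in tumor 8, and between -1.37 and -0.12 in the other 5 tumors. Its signal was 12.97 and 13.17 in tumors 2 and 7, against 10.02 and 10.31 in the control livers of those arrays. Cox6a2 had ratios of 4.24 and 3.58 in tumors 2 and 7, 1.88 in tumor 1 and -1.84 on array 8. Its signal was 11.46 and 10.46 in tumors 2 and 7, against 7.22 and 6.89 in their control livers. Cox8b was dim in tumors, between 6.29 and 7.72, with ratios from -1.87 to 0.51 on 7 arrays and -4.63 on array 8.

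Skeletal muscle markers were read beside these genes. On array 8 the mean level of the 15 markers was 8.48 in the tumor and 11.70 in the control liver, with 11 and 15 of them above background. On the other 7 arrays it was 6.34 to 6.50 in tumors and 6.32 to 6.47 in control livers, with 4 or 5 above background. The summed level was 12.88 in tumor 8 and 16.77 in its control, against 10.36 to 10.59 in the other tumors and 10.34 to 10.67 in theirs. On array 8, Cox6a2, Cox7a1 and Cox8b thus stood where muscle genes were raised in both channels, and the part of muscle RNA there was not tested. The mean muscle marker level was 6.41 and 6.43 in tumors 2 and 7, against 6.34 and 6.37 in their control livers. Of single markers, Mb (myoglobin) was 7.08 in tumor 7 and 6.82 in its control liver. On arrays 1 to 6 it was 5.75 to 6.08 in both channels. Atp2a1 was 7.87 in tumor 2, against 7.66 in its control liver and 7.19 to 7.43 in tumors 1 and 3 to 6. In tumor 7, Atp2a1 was also above that range and above its control liver (7.47). Acta1 was 6.74 and 6.72 in tumors 2 and 3, against 6.36 and 6.24 in their control livers. Pvalb was lower in tumors 2 and 7 (7.31 and 7.45) than in their control livers (7.86 and 7.62). Myl1 was raised in both channels of array 5, at 8.09 in the tumor and 8.64 in the control liver. Cox7a1 and Cox8b are also known from brown fat. Its defining marker Ucp1 was not well above background in any tumor, at 6.11 and 6.12 in tumors 2 and 7. Cidea, another fat marker, was above background in all 8 tumors. Its level was 8.80 and 9.59 in tumors 2 and 7, against 10.29 and 7.78 in their control livers, and 7.34 to 9.10 in the other tumors. The mean level of 8 fat markers was 8.24 and 8.45 in tumors 2 and 7 and 8.48 in tumor 8, against 9.95 in the control liver of array 8 and 8.24 to 8.72 in the other control livers. That mean joins members that moved in opposite directions. On every array Fabp4 was higher in the tumor, and Cfd and Car3 were lower. Fabp4 was 13.83 and 13.23 in tumors 2 and 7, against 9.53 and 9.86 in their control livers. Cfd was 5.89 and 5.99, against 8.73 and 7.76. Without array 8, Cox6a2 averaged 1.62 and was called (adjusted p = 0.0279), and Cox8b averaged -0.61. Cox7a1 averaged 0.29 ± 1.75 over 8 arrays, -0.09 without tumor 2 and -0.08 without tumor 7, all uncalled.

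Cox6a2 exceeded its common partner Cox6a1 (-0.41 ± 0.35) by 1.60 ± 1.82 over 8 arrays, in 7 of 8 tumors, which did not pass the test (adjusted exact p = 0.0502). Without array 8 the difference was 2.03 (adjusted exact p = 0.0281). Cox7a1 exceeded Cox7a2 by 1.07 ± 1.21 in 6 of 8 tumors (adjusted exact p = 0.0469). That call was lost without tumor 1, 2, 3, 6, 7 or 8, at adjusted exact p-values between 0.0804 and 0.0938, and the difference was 0.74 without tumor 2. Cox8b and Cox8a differed by -0.67 ± 1.72 (adjusted exact p = 0.378), and by -0.15 without array 8.

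**Figure D3:**
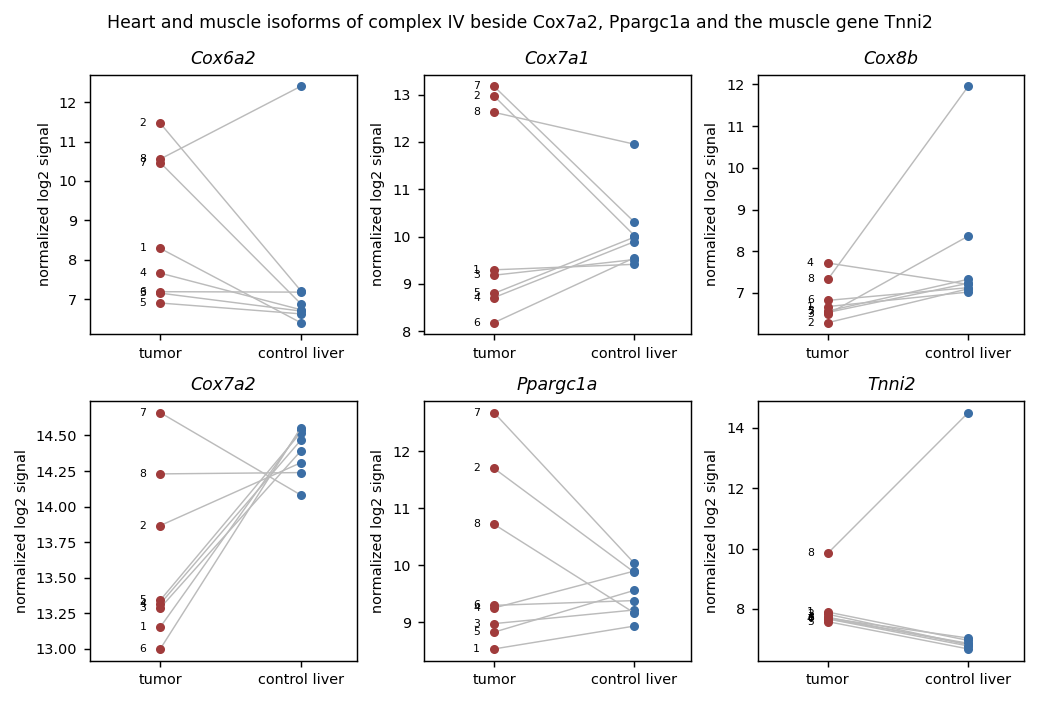
Normalized log2 signal (vertical axes) of Cox6a2, Cox7a1, Cox8b, Cox7a2, Ppargc1a and the muscle gene Tnni2, with tumors on the left and control livers on the right. Lines join the 2 channels of an array and the numbers are arrays. Tnni2 is raised in both channels of array 8 only, while Cox6a2, Cox7a1 and Ppargc1a are also high in tumors 2 and 7.

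The chain as a whole stood at different levels in different tumors. Differences between complexes or between tumors were not tested. The median over the 83 subunits was -0.65, -0.19, -0.38, -0.54, -0.53, -0.70, 0.01 and -0.51 in tumors 1 to 8. Tumors 7 and 2 lay nearest their control livers, with 41 and 50 subunits below 0, against 67 to 77 in the other tumors. Complex II had the widest range, with medians of 0.20 and 0.11 in tumors 7 and 2, -0.52 in tumor 8 and -0.97 to -0.72 in the other 5 tumors. In tumor 7, complexes IV and V were also above 0 (0.14 and 0.09), and complexes I and III below (-0.06 and -0.20). In tumor 2, complex V stood at 0.03, and complexes I, III and IV at -0.22, -0.26 and -0.22. Of the 51 subunits called lower, 45 (88.2%) had their highest ratio in tumor 2 or 7. Of all 3594 genes called lower, 30.4% did. The 2 tumors were picked from these same subunit ratios, so a high share among the subunits follows in part from that choice.

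**Figure D4:**
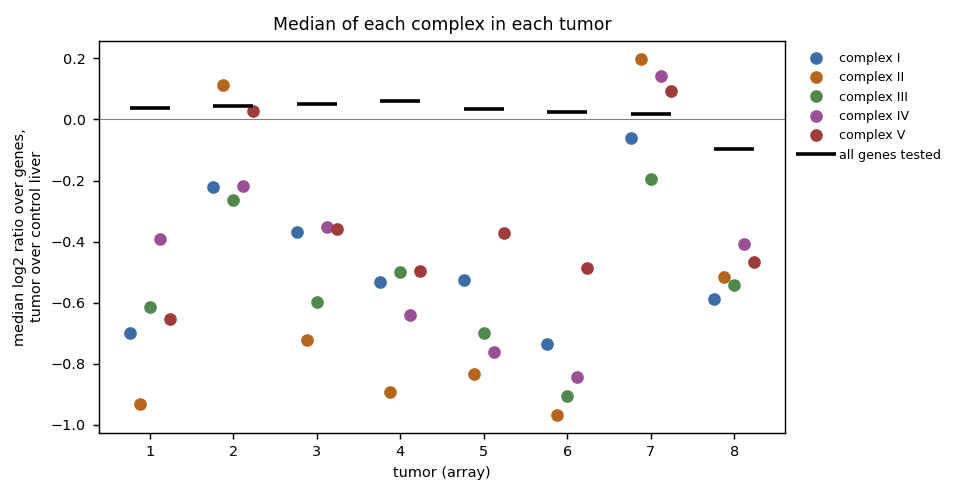
Median log2 ratio of tumor over control liver (vertical axis) over the tested genes of each complex, for each of 8 tumors (horizontal axis). Black bars are the median of all 14324 tested genes on that array. Tumors 2 and 7 lie nearest 0, with complex II above 0 at 0.11 and 0.20.

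Some other genes moved with tumors 2 and 7. Ppargc1a, the PGC-1-alpha coactivator, had ratios of 1.83, 2.65 and 1.56 in tumors 2, 7 and 8 and between -0.73 and -0.08 in the others, and was not called (0.49 ± 1.31). Esrra, which encodes ERR-alpha, stood at 1.27 and 1.41 in tumors 2 and 7 and between -0.67 and 0.37 elsewhere. Bile duct markers also split the tumors. The mean level of the 6 markers was 8.92, 8.56 and 8.04 in tumors 2, 7 and 8 and 10.31 to 10.55 in the other 5 tumors, against 7.79 to 8.47 in control livers. Hepatocyte markers averaged 16.32 and 16.04 in tumors 2 and 7 and 16.36 to 16.72 in the other tumors, against 16.90 to 17.30 in control livers. Stellate cell and fibroblast markers averaged 12.12 and 11.99 in tumors 2 and 7 and 10.29 to 11.59 in the other tumors, against 9.44 to 10.36 in control livers. Genes that mark the amount of mitochondria had median ratios of 0.27 and 0.23 in tumors 2 and 7, and -0.29 to 0.15 in the others. Citric acid cycle enzymes had 0.10 and 0.23 in those 2 tumors, and -0.70 to -0.13 in the others. Electron carriers and ubiquinone synthesis genes had -0.34 and -0.15, and -0.72 to -0.43 in the others. Other lists did not set both tumors apart. Regulators of mitochondrial biogenesis, Ppargc1a and Esrra included, had -0.47 and -0.24, and -0.40 to -0.15 in the others. Assembly factors had -0.49 and -0.29, and -0.66 to -0.47 in the others.

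**Figure D5:**
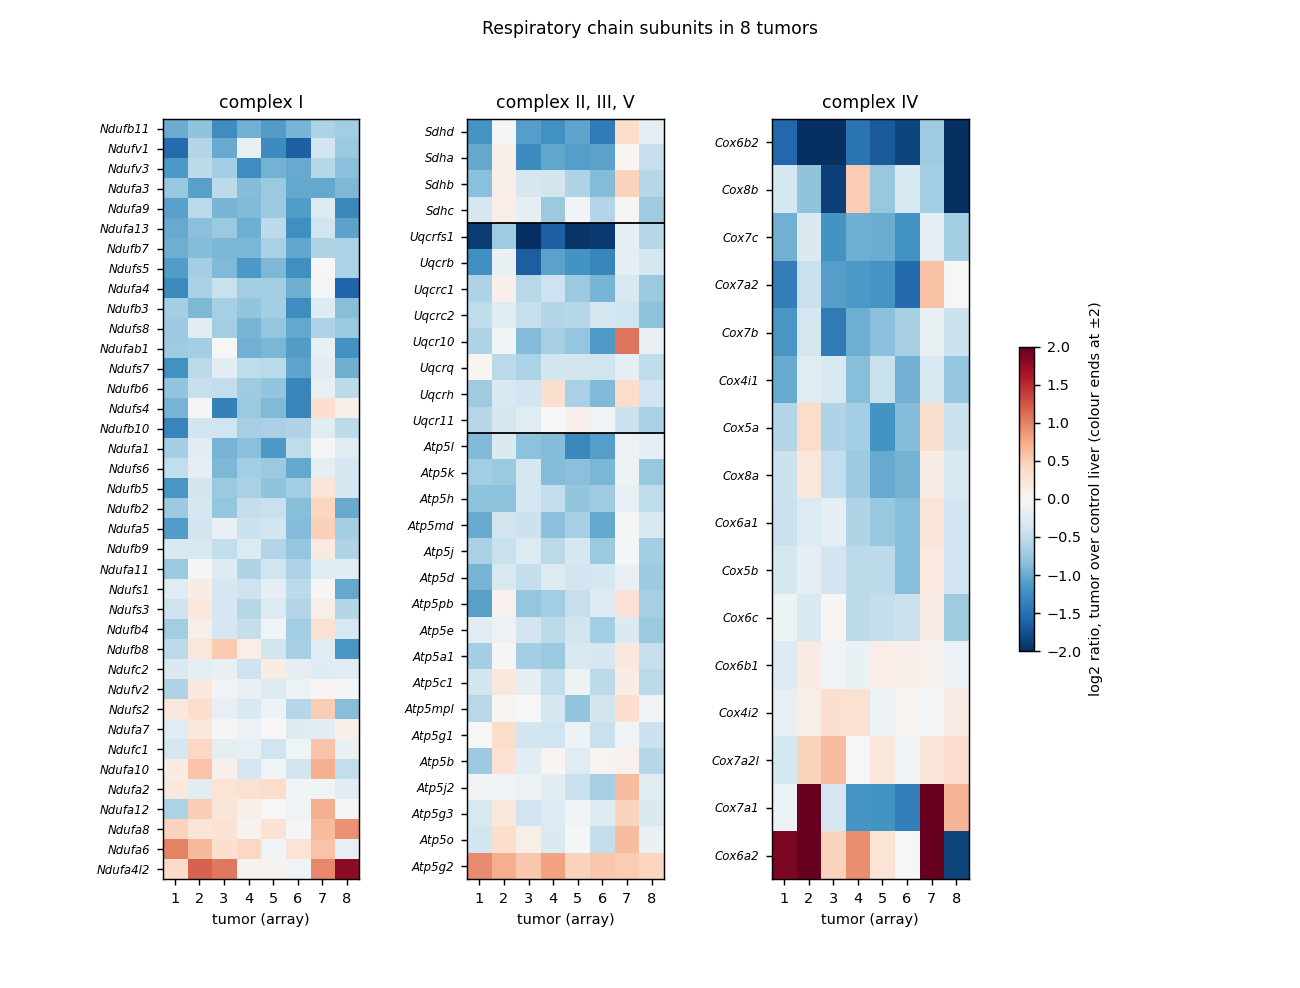
Log2 ratio of tumor over control liver for each tested subunit (rows, by complex and ordered by mean) in each of 8 tumors (columns); blue is lower in the tumor, red is higher, and the colour ends at ±2. Columns 2 and 7 are the palest, and Atp5g2 is red in all 8 tumors.

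Genes around the chain were described from lists chosen with earlier results of these data known. Each count is to be read against 25.1% of all tested genes lower and 28.7% higher. Of 46 assembly factors tested, 30 fell and 1 rose, with a median of -0.49. Fmc1, which helps to assemble the F1 head, fell to -1.91 ± 0.66 (adjusted p = 7.54e-05), and Nubpl, which delivers iron-sulfur clusters to complex I, to -1.15 ± 0.17 (adjusted p = 5.98e-06). Cox20, a chaperone of a complex IV core subunit, rose (0.36 ± 0.29, adjusted p = 0.0186). Electron carriers and ubiquinone synthesis genes had 11 lower and 3 higher of 17, with a median of -0.63. Etfa and Etfdh, which bring electrons from fatty acid oxidation to ubiquinone, fell to -1.58 ± 0.44 and -1.41 ± 0.78 (adjusted p = 2.77e-05 and 0.00105). Coq8b and Pdss1, which act in ubiquinone synthesis, rose to 0.92 ± 0.41 and 0.68 ± 0.44 (adjusted p = 0.000475 and 0.00339).

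Among regulators of mitochondrial biogenesis, 5 of 13 fell and the rest were not called. Tfam, which packages mitochondrial DNA, averaged -0.79 ± 0.27 (adjusted p = 0.000196) and Mterf3, a negative regulator of its transcription, -0.89 ± 0.25 (adjusted p = 6.96e-05). Gabpa was among those lower (-0.40 ± 0.16, adjusted p = 0.00205), while Nrf1 was not called (0.15 ± 0.18). Genes that mark the amount of mitochondria had a median of 0.04, with 4 lower and 5 higher of 19. Slc25a4, the ADP/ATP carrier typical of heart and muscle, rose to 2.55 ± 0.88 (adjusted p = 6.61e-05). Tomm22, a protein import receptor, rose to 1.08 ± 1.13 (adjusted p = 0.0238). Chchd3 and Phb2, which shape the inner membrane, fell to -0.70 ± 0.45 and -0.53 ± 0.39 (adjusted p = 0.00318 and 0.00732).

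Citric acid cycle enzymes moved both ways, with 8 lower and 4 higher of 18 and a median of -0.37. Suclg1, a subunit of succinyl-CoA ligase, fell to -1.21 ± 0.62 (adjusted p = 0.000769), and Pcx, which makes oxaloacetate from pyruvate, to -0.97 ± 0.31 (adjusted p = 9.62e-05). Cs (citrate synthase) rose to 0.63 ± 0.41 (adjusted p = 0.00381). Of 10 PPARA and fasting genes, 3 fell and 1 rose. Cyp4a10, a fatty acid hydroxylase, fell to -2.87 ± 3.53 (adjusted p = 0.0436). Fgf21, a fasting hormone, rose to 1.81 ± 2.13 (adjusted p = 0.0374). Their control level was 14.39 to 14.74 on arrays 1, 2 and 8, against 11.31 to 12.52 on the other arrays, so the control livers differed in this respect.

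The bases before the start of transcription were read for the subunits that rose and for those lowest in complexes III and I, since NRF1 is a known regulator of the chain. RefSeq promoter sequences (GRCm38.p6) were found for 69 of 85 members. The NRF1 core letters GCATGCGC, on either strand, stood within 250 bases before the start of 8 of 69 members (11.6%), against 2.56% of all 27025 genes. They were found for 3 of 3 members called higher (Atp5g2, Ndufa6 and Ndufa8, while Ndufa4l2 had no entry), 4 of 44 called lower and 1 of 21 not called. This was noticed after the values were seen, and a match is a description of letters, not a measured site. Of the 3 members called higher, only Atp5g2 kept its call under all alternatives run. Ndufa6 and Ndufa8 lost theirs with the processed signals and with some sets of fewer arrays. The 250 bases before the start of 5 genes are given with the NRF1 core letters in capitals. All 5 genes lie on the minus strand, at chr15:102671048-102671297 (Atp5g2), chr15:82354292-82354541 (Ndufa6), chr2:36049339-36049588 (Ndufa8), chr13:30545317-30545566 (Uqcrfs1) and chrX:20617620-20617869 (Ndufb11).
Atp5g2: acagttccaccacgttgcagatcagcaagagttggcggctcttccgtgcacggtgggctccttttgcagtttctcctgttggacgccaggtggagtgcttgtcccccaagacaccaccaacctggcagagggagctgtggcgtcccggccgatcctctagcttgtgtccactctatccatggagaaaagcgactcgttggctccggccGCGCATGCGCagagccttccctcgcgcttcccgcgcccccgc
Ndufa6: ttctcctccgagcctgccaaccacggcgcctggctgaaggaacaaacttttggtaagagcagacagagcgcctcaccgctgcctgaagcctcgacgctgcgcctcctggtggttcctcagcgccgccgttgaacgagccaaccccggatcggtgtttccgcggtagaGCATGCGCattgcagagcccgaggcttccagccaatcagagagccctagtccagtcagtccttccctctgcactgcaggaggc
Ndufa8: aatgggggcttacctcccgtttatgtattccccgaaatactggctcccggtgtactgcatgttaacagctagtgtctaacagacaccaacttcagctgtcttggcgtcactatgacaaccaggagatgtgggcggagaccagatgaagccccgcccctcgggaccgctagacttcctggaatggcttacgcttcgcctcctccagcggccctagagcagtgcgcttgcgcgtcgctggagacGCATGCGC
Uqcrfs1: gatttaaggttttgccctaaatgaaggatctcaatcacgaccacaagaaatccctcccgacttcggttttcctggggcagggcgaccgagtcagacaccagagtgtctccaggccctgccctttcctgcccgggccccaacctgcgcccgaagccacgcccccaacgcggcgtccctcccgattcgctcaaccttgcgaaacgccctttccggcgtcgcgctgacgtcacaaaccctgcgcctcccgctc
Ndufb11: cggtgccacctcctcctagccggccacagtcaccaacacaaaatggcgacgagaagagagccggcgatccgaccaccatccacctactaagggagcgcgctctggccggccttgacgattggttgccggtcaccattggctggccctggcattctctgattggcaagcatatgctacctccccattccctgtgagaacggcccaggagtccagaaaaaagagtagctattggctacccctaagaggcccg

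In Atp5g2 the capitals cover 2 overlapping matches, 1 on each strand. In Ndufa8 the match ends at the start site. The windows of Uqcrfs1 and Ndufb11 do not hold these letters. Of the other motifs searched on both strands, the ETS letters CCGGAAG bound by GABPA were found for 12 of 69 members (17.4%), against 7.83% of all genes: 10 of 44 called lower, 2 of 21 not called and none of the 3 called higher. The ERR-alpha letters AAGGTCA was found for 7.25% of members against 4.70% of all genes, and the YY1 letters AAGATGG for 1.45% against 5.18%. The hypoxia response core ACGTG was found for 20.3% against 18.5%, and CCAAT for 43.5% against 37.5%. These motifs do not contain one another, although matches can overlap in a promoter.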

How the data were processed

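Hepatocellular carcinomas and control livers were compared on 8 Agilent arrays of 2 colours on 1 slide. The deposited intensity columns are the scanner's median signals and backgrounds, and processed signals that per the file headers were already background-subtracted and dye-normalized. The deposited log10 ratios of red over green were not used. Agilent Feature Extraction 10.9 made them, per the submitters' processing notes. The mean signals that had been planned are not used here, so median signals took their place.

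Signals were corrected by normexp (offset 50) and normalized by loess within arrays with limma 3.58.1 in R 4.3.3. Channel levels were taken after Aquantile scaling. Accessions matched to GRCm38.p6 gave a gene symbol to 26582 of 55681 probes. Testing a probe required signal well above background in 1 channel of 4 or more arrays, and the brightest tested probe stood for a gene. Mean log2 ratios of 14324 genes were tested with lmFit and eBayes, and calls needed a Benjamini-Hochberg adjusted p under 0.05. Pairs of isoforms were tested by exact two-sided sign flips over 8 arrays, adjusted over 9 pairs. The number of arrays limits the precision. The procedure was tested on simulated data.

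The genes described are the 4 members of each complex with the largest called ratios in each direction, both genes of each isoform pair, the 3 with the largest SDs, and the 2 largest called in each direction of each pathway list. Other genes were named after their values were seen. The rule also covered the cell type marker lists, which are given as counts and levels instead, and some further genes that it names are not reported here. The members and gene lists were chosen with earlier results of these data known.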

Additional observations from a re-analysis of the deposited data

Results flagged for a closer look

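For 4 of 88 values checked, 1 array stood far from the other 7, a gap that chance gives in about 1 of 20 groups. Ndufb10, an accessory subunit of complex I, had a log2 ratio of -1.32 in tumor 1, against -0.66 to -0.24 in the other tumors. Cox8b had -4.63 on array 8, where skeletal muscle genes were raised in both channels, against -1.87 to 0.51 on the other arrays. In tumor 7, which lay nearest its control liver over the whole chain, Ndufb2 of complex I had 0.43, against -1.01 to -0.33 in the other tumors. Atp5j2, subunit f of ATP synthase, had 0.64 in tumor 7, against -0.66 to -0.06 in the others.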

How the results depend on the processing

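No called count, pair or subunit changed direction under any of the alternatives run (of those not called, Cox7a1 averaged -0.59 without arrays 2 and 7), and the median over the subunits stayed between -0.59 and -0.38. Of the 51 falls, 13 held under all of them, as did 1 of the 4 rises (Atp5g2). Leaving out 1 array at a time gave 43 to 56 subunits lower and 2 to 5 higher, with 2 to 4 lower and 0 to 1 higher by at least 2-fold. By complex the count lower was 21 to 26 in I, 2 to 4 in II, 5 to 7 in III, 7 to 10 in IV and 7 to 11 in V. It moved the pair differences to 0.74 to 1.23 for Cox7a1 minus Cox7a2, 0.86 to 1.15 for Cox7a2l minus Cox7a2, and 1.18 to 2.03 for Cox6a2 minus Cox6a1.

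With the processed signals 2 subunits were higher and Cox7a1 exceeded Cox7a2 by 1.03, no longer called; an offset of 16 gave 1.07 for this pair, also not called. Those signals also turned the split over all genes to 28.4% lower and 24.8% higher. Cox6a2 exceeded Cox6a1 by 1.60 and was called with no filter and with the strictest one, where the number of pairs adjusted over changed. All 4 genes of complex II were lower with the mean of all probes, trend and robust variance, array weights, and slide row as a random block. Array weights and slide row 1 alone each gave 4 subunits lower by at least 2-fold, and row 1 alone 2 higher. Slide row 2 alone (4 arrays) gave 14 lower and 1 higher: 10 in complex I, 0 in II, 1 in III, 3 in IV and 0 in V, against 9.87% of all genes lower. With arrays 1 and 2 averaged, the pairs Cox7a1 with Cox7a2 (0.89) and Cox7a2l with Cox7a2 (0.96) were not called. Without arrays 1, 2 and 8, 1 subunit was higher and 6 of complex IV were lower. Leaving out arrays 2 and 7, an alternative chosen after seeing the data, gave 1 higher, 8 lower by at least 2-fold and 4 lower in complex II. Why calls changed was not tested, also where fewer arrays entered. The exact pair test cannot pass with 5 arrays or fewer. The tests are already paired by array, and no further block by replicate number could be fitted to 1 ratio per array.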
